A study of Mus musculus with 6 samples.

Results

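Transcripts of the Notch receptors, their ligands and the Fringe enzymes were examined in control and Pax6-deficient retinal progenitor cells (RPCs) of the E12 mouse retina. The genes are the receptors Notch1, Notch2 and Notch3, the ligands Dll1, Dll3, Dll4, Jag1 and Jag2, and the Fringes Lfng and Mfng. Every probe set (a group of short probes against 1 transcript) that the platform annotation names as 1 of these 10 genes was taken, which gave 10 of 18193 genes and 18 of 45037 probe sets. Of the 10 genes, 3 had 1 probe set, 6 had 2 and Jag1 had 3. The control embryos carried the α-Cre transgene and were wild type for Pax6, and the mutant embryos carried α-Cre together with Pax6 flox, given in the methods as homozygous. All embryos were of ICR background and E12, and control and mutant embryos came from different matings, so that mating and genotype cannot be told apart. The loxP sites flank exons of Pax6 that hold its start codon and paired domain. The α-Cre transgene, driven by a promoter and an enhancer of Pax6 itself, expresses Cre with GFP in distal RPCs, so that GFP-positive cells of both genotypes could be sorted. RNA of 3 control and 3 mutant pools of sorted cells, described as biological repeats, was hybridised to 1 Affymetrix array each; the sources used here do not give the number of embryos in a pool. Values are given as log2 RMA intensity, where RMA is the summary of a probe set after background correction and normalisation between arrays. The median of an array lay between 3.68 and 3.71, and arrays correlated over all probe sets at 0.995 to 0.997 within a group and 0.991 to 0.993 between groups.

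Notch receptors sit on the cell surface and are activated by Delta (Dll) and Jagged (Jag) ligands on a neighbouring cell. Cleavage by ADAM proteases and γ-secretase then releases the intracellular part of the receptor, which joins Rbpj and Mastermind in the nucleus and switches on repressors of the Hes and Hey families. In the embryonic retina, cells that begin to differentiate express Dll1 under proneural bHLH factors and, through Notch, hold their neighbours in the progenitor state. Fringes add a sugar to the receptor and thereby shift its response between Delta and Jagged ligands.

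Proneural bHLH factors bind E-boxes (CANNTG, which matches both strands at once), so the sequences before the start sites of 3 ligand genes are shown: Dll1, which is the member that passed the thresholds, and Dll3 and Jag1, with which it is compared. Each is the 250 bases before the RefSeq start (GRCm38.p6), 5′ to 3′ on the strand of the gene, with E-boxes in capitals.

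Dll1, chr17:15376933-15377182, minus strand: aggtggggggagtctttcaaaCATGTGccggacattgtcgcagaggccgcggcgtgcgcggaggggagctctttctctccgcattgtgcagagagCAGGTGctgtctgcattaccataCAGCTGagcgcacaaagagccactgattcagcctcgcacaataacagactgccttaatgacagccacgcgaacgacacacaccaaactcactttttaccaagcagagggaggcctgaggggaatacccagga

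Dll3, chr7:28301786-28302035, minus strand: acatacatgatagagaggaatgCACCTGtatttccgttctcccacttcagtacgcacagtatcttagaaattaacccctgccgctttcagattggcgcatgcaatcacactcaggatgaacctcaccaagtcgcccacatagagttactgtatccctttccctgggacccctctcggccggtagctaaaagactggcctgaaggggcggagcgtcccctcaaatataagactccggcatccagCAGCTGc

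Jag1, chr2:137116521-137116770, minus strand: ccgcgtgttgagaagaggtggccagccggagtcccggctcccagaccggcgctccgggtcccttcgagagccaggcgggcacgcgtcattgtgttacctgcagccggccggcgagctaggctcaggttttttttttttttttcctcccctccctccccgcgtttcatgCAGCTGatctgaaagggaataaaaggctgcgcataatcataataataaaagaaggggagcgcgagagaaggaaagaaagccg

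The Dll1 window holds 3 E-boxes and the Dll3 window 2, and the Jag1 window holds 1. Each of these 3 windows has 1 E-box of the form CAGCTG. Windows were found for 9 of the 10 genes, and of the other 6 genes Lfng had 2 E-boxes and the windows taken for Notch1, Notch2, Notch3, Dll4 and Jag2 had 0. A second RefSeq start of Dll1 had 1. Over 32851 promoter windows of the same length, 66.2% hold at least 1 CANNTG and 13% hold CAGCTG. The core TGGGAA to which Rbpj binds, searched on both strands, is in 21.6% of the windows, and among the members it was found in that of Lfng. These matches describe letters in the windows and say nothing of binding.

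A call needed a change of 1.5-fold or more, an unadjusted p under 0.05 and, after Benjamini-Hochberg adjustment over all probe sets, a p under 0.10. These are the thresholds of the methods, here applied to limma. Adjusted p-values below are from that fit unless an alternative is named, and they rest on the spread between the pools. Those for the median of a gene's probe sets are from a fit over genes and are adjusted over genes. Of the 18 probe sets, 1 was called lower in mutant RPCs, that of Dll1, where 0.984% of all probe sets were called lower. None of the 18 was called higher by limma, where 1.67% of all were. At an unadjusted p under 0.05, 4 were lower and 3 higher, against 4914 lower and 4476 higher of all 45037 probe sets. An adjusted p under 0.10 was reached by 3 of 18 (9.59% of all). On 10 of the 18 the 3 mutant arrays lay on 1 side of the 3 control arrays, against 28.2% of all probe sets. The median log2 fold change of the 18 was -0.05, against -0.02 over all probe sets. With 1 probe set per gene, the brightest over the 6 arrays, 1 of 10 genes was called lower and 0 higher (0.918% and 2.28% of 18193 genes). At an unadjusted p under 0.05, 4 genes were lower and 1 higher, against 2108 lower and 2336 higher of the 18193. The groups did not overlap for 7 of the 10 genes, against 6076 of the 18193.

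**Figure D1:**
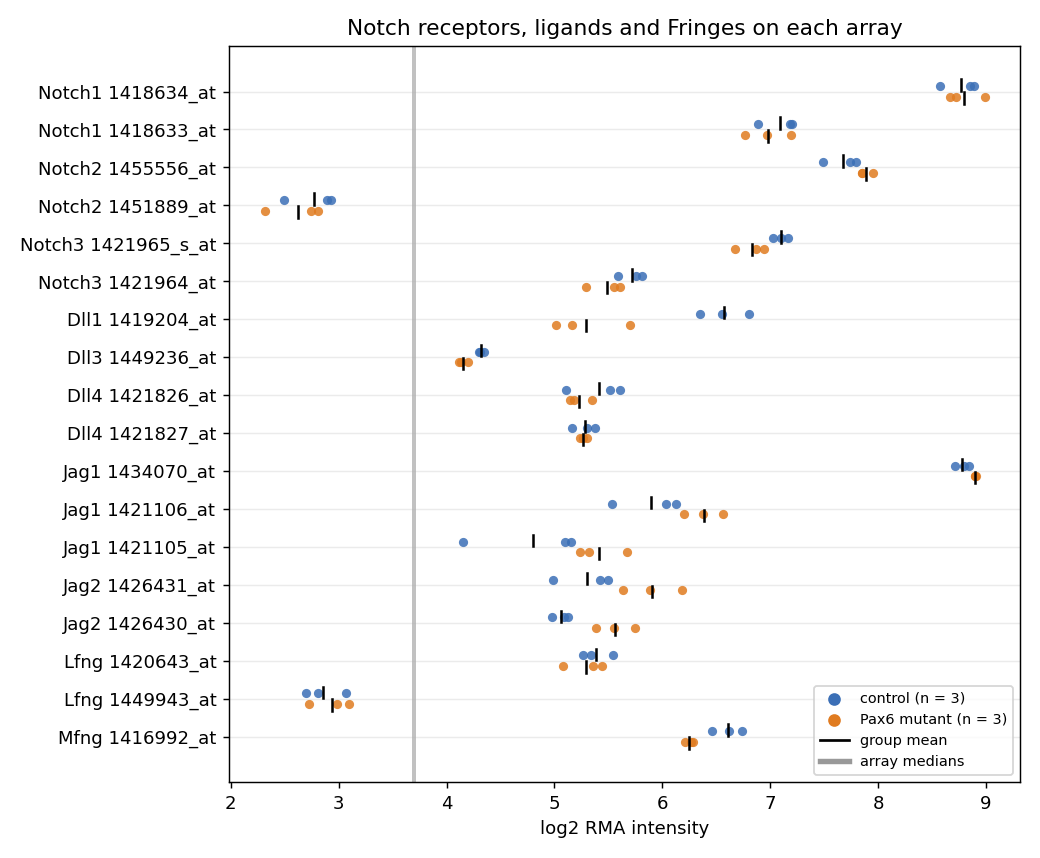
Log2 RMA intensity (x axis) of the 18 probe sets (y axis) on each array, with control arrays in blue, mutant arrays in orange, black bars at the mean of 3 arrays and a grey band over the 6 array medians. The Dll1 groups lie far apart (6.35 to 6.80 against 5.01 to 5.70), and the dimmer probe sets of Notch2 and Lfng lie below the array medians.

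Among the Delta ligands, Dll1 fell in mutant RPCs. Its single probe set was at 6.35, 6.80 and 6.55 in the controls and at 5.01, 5.70 and 5.17 in the mutants. All mutant arrays were below all control arrays, and mutant replicate 2 was the highest of the mutants. The means were 6.57 ± 0.23 (SD, n = 3) and 5.29 ± 0.36 (SD, n = 3), a 2.42-fold fall, or -1.28 on the log2 scale (standard error 0.19, 95% confidence interval -1.73 to -0.82, adjusted p = 0.0163). Without 1 array at a time the log2 fold change ranged from -1.48 to -1.13 (adjusted p from 0.0233 to 0.0629), and without moderation of the variance Dll1 was not called (adjusted p = 0.127). In sorted pools, fewer Dll1-expressing cells and less Dll1 RNA per cell cannot be told apart.

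Dll3, a Delta family member that stays largely inside the cell and does not activate Notch on neighbours, was not called. Its probe set read 4.31, 4.35 and 4.30 in control and 4.11, 4.20 and 4.14 in mutant RPCs. The 2 groups did not overlap, but they were separated by a small step. The log2 fold change was -0.17 (95% confidence interval -0.31 to -0.03, adjusted p = 0.154). The whole interval is smaller than a 1.5-fold change of the RMA values. The probe set lay little above the array medians of 3.68 to 3.71, where RMA shrinks differences, so the interval does not bound the change of the transcript. Dll4, which is best known from sprouting vessels and is also a ligand of retinal progenitors, overlapped between groups on both probe sets. The brighter was at 5.11, 5.61 and 5.52 in control and 5.14, 5.35 and 5.18 in mutant RPCs, and the other at 5.16, 5.38 and 5.30 against 5.26, 5.24 and 5.31. Their log2 fold changes were -0.19 (95% confidence interval -0.51 to 0.13) and -0.01 (-0.18 to 0.16), and both intervals lie within the 1.5-fold threshold.

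The Jagged ligands read higher in mutant RPCs on all 5 probe sets, and none passed all 3 thresholds. Jag2 came nearest. Its brighter probe set was at 5.42, 4.98 and 5.49 in the controls and at 5.89, 6.18 and 5.64 in the mutants. The groups did not overlap, and the log2 fold change of 0.60 (standard error 0.18, 95% confidence interval 0.19 to 1.02), 1.52-fold, missed on the adjusted p alone (0.107). The dimmer Jag2 probe set was at 5.12, 4.98 and 5.09 in control and 5.55, 5.74 and 5.38 in mutant RPCs, again without overlap. Its log2 fold change of 0.49 (standard error 0.10, 95% confidence interval 0.26 to 0.73, adjusted p = 0.0402) was 1.41-fold and missed on the fold change. Its adjusted p was 0.0455 to 0.12 without 1 array at a time, above 0.10 without control replicate 2 or mutant replicate 1, and 0.159 without moderation. The brighter probe set was called higher with each array's median subtracted (adjusted p = 0.099), with an intensity trend in the variance (0.0563) and with the dimmest 40% of probe sets left out (0.0776), and over all alternatives its adjusted p ran from 0.0563 to 0.287.

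The 3 Jag1 probe sets shared a direction and differed in size. The brightest was at 8.84, 8.71 and 8.79 in control and 8.90, 8.91 and 8.89 in mutant RPCs. The mutant arrays had an SD of 0.0066 and lay just above the controls, with a log2 fold change of 0.12 (95% confidence interval -0.02 to 0.26, adjusted p = 0.314). The other pair was dimmer and differed more between groups. The middle probe set was at 6.12, 5.53 and 6.03 in control and 6.21, 6.57 and 6.38 in mutant RPCs, a log2 difference of 0.49 (95% confidence interval 0.09 to 0.88, adjusted p = 0.158). The dimmest was at 5.16, 4.16 and 5.09 against 5.23, 5.68 and 5.32, a log2 fold change of 0.61 (95% confidence interval -0.03 to 1.24, adjusted p = 0.257). Control replicate 2 was the lowest array on all 3. Without it the log2 fold change of the dimmest was 0.29 in place of 0.61, and that of the middle one 0.30 in place of 0.49. By the median of the probe sets of each gene, Jag1 stood at 0.49 (adjusted p = 0.122) and Jag2 at 0.55 (adjusted p = 0.0462) on the log2 scale. The first missed on the adjusted p and the second on the fold change.

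The change of each of the 8 other ligand probe sets, less the change of Dll1 on the same arrays, lay between 1.09 (the brighter of Dll4) and 1.88 (the dimmest of Jag1) on the log2 scale, and for Jag2 it was 1.88 and 1.77. These differences are a description, with no test, since Dll1 was chosen as the member that was called.

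**Figure D2:**
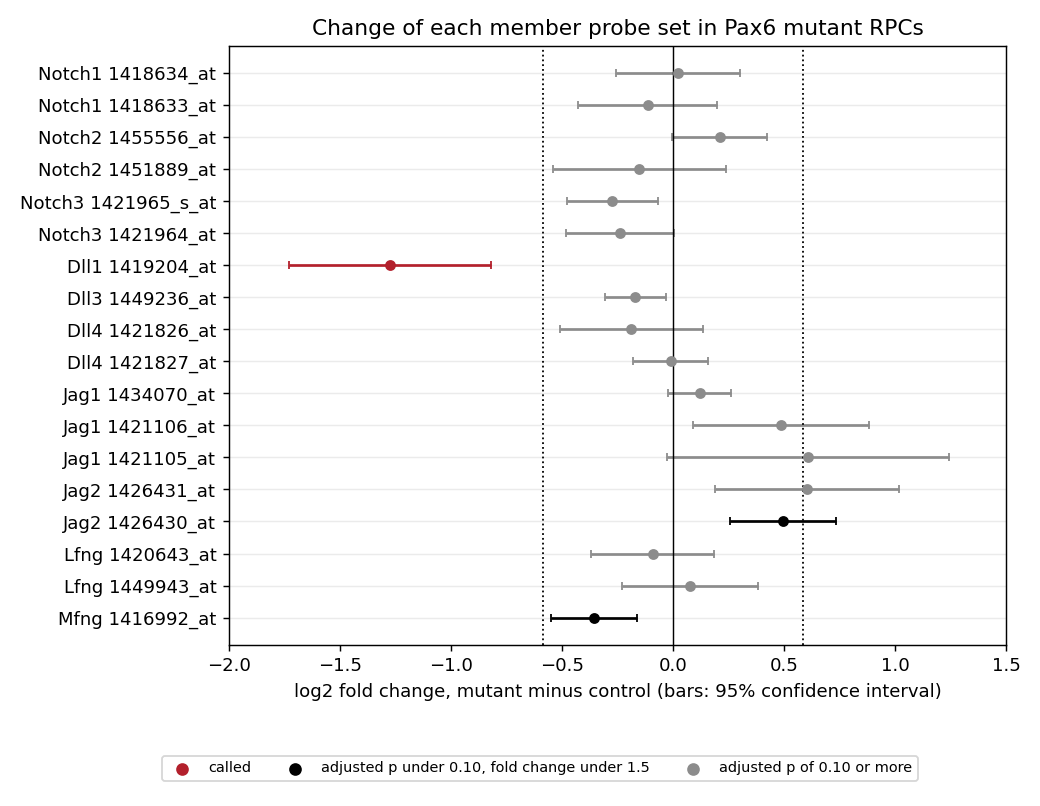
Log2 fold change, mutant minus control (x axis), of each of the 18 probe sets (y axis) with its 95% confidence interval from limma, and dotted lines at the 1.5-fold threshold. Dll1 at -1.28 is the only probe set called (red), the dimmer Jag2 probe set and Mfng (black) have an adjusted p under 0.10 with a fold change under 1.5, and the other 15 are grey.

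None of the 3 receptors was called by limma, and 1 of their 6 probe sets, of Notch3, had an unadjusted p under 0.05. Notch1, the main receptor of retinal progenitors, was at 8.57, 8.85 and 8.89 in the controls and at 8.72, 8.99 and 8.67 in the mutants by its brighter probe set. The groups overlapped, and the log2 fold change of 0.02 had a 95% confidence interval of -0.26 to 0.30. The dimmer probe set was at 6.89, 7.20 and 7.18 against 6.97, 7.20 and 6.76, with a log2 fold change of -0.11 (-0.43 to 0.20). A change of Notch1 by 1.5-fold thus lies outside the interval of either probe set.

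Notch2, also expressed at the retinal rim and in the lens, had a bright probe set at 7.74, 7.49 and 7.79 in control and 7.95, 7.86 and 7.85 in mutant RPCs. The groups were apart by a narrow gap, and the log2 fold change was 0.21 (95% confidence interval -0.0042 to 0.42, adjusted p = 0.247). Without control replicate 2, its lowest array, it was 0.12. Its other probe set lay below the array median, between 2.32 and 2.93 over the 6 arrays, and its value of -0.15 is uncertain in size.

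Notch3, a receptor of mural cells that neural progenitors express as well, had negative log2 fold changes on both probe sets, and neither was called. The brighter was at 7.03, 7.17 and 7.10 in control and at 6.67, 6.94 and 6.87 in mutant RPCs, without overlap, and the log2 fold change was -0.27 (standard error 0.09, 95% confidence interval -0.48 to -0.07, adjusted p = 0.13). The other, at 5.76, 5.59 and 5.82 against 5.29, 5.55 and 5.61, had a log2 fold change of -0.24 (95% confidence interval -0.48 to 0.00), and there 1 mutant array exceeded 1 control array.

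Of the Fringes, Mfng was lower by less than the fold threshold and Lfng showed no difference beyond the spread of the arrays. Mfng was at 6.46, 6.74 and 6.62 in the controls and at 6.26, 6.21 and 6.28 in the mutants. All mutant arrays were below all control arrays, and the log2 fold change was -0.35 (standard error 0.08, 95% confidence interval -0.55 to -0.16, adjusted p = 0.0567), 1.28-fold. That adjusted p stayed under 0.10 without control replicate 1 (0.0428), was 0.117 to 0.163 without any other array, and was 0.115 with the replicate block and 0.163 without moderation. The brighter Lfng probe set was at 5.26, 5.34 and 5.55 against 5.35, 5.08 and 5.44, and its log2 fold change of -0.09 had a 95% confidence interval of -0.37 to 0.19. The dimmer, below the array median, was between 2.69 and 3.10 over the 6 arrays (0.08, -0.23 to 0.38).

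The fall of Dll1 and the lower value of Mfng stood beside lower proneural genes in the same arrays. Of 13 measured proneural and newborn neuron genes, 8 were called lower and 0 higher by limma, and at an unadjusted p under 0.05 10 were lower and 0 higher. Of all genes, 0.918% were called lower. The median log2 fold change of the 13 was -0.87, against -0.01 over all genes. Neurog2, a proneural factor known to act before Dll1, had a log2 fold change of -1.77, Atoh7 one of -1.21 and Neurod1 one of -1.49. Also called were Insm1 (-0.89) and Hes6 (-0.87), expressed in cells that leave the progenitor state, and the neuronal genes Stmn2 (-0.95), Elavl3 (-0.81) and Tubb3 (-1.11). The mean log2 intensity of the 13 genes was 6.77, 6.92 and 7.05 in the controls and 6.10, 6.11 and 6.22 in the mutants. In both groups replicate 1 was the lowest array for the list and for Dll1. The highest was replicate 3 of both groups for the list and replicate 2 of both groups for Dll1. The part of these genes in the Dll1 value was not tested.

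Some markers of other eye tissues were higher in the mutant pools. Called higher were 5 of 13 endothelial markers, 6 of 10 pigment epithelium markers, 5 of 9 mesenchyme markers, 2 of 8 mural cell markers and 1 of 10 lens markers, and 0 of these markers were lower at an unadjusted p under 0.05. Of all genes, 2.28% were called higher and 0.918% lower. All measured endothelial, pigment epithelium, mesenchyme and lens markers had a positive log2 fold change, as had 5 of the 8 mural cell markers. The summed intensities, on the log2 scale, ranged from 9.76 to 10.12 in control and 10.46 to 10.58 in mutant RPCs for endothelium, from 12.51 to 12.79 and 13.16 to 13.17 for pigment epithelium, from 9.14 to 9.26 and 9.78 to 10.23 for mesenchyme, from 9.82 to 9.98 and 10.04 to 10.29 for mural cells, and from 10.25 to 11.19 and 11.37 to 11.60 for lens. The brightest markers were Emcn and Egfl7, Pmel and Dct, Col1a2 and Col3a1, Acta2 and Des, and Cryaa and Cryba1, in the same order of lists. The mural cell sum was mostly Acta2, at 9.68 to 9.83 in control and 9.85 to 10.12 in mutant RPCs. Acta2 was not called (0.20, adjusted p = 0.268). Over the 6 arrays 0 endothelial, 0 pigment epithelium, 2 mesenchyme, 4 mural cell and 1 lens markers lay below the array median. All 8 measured retinal progenitor markers were above it. Among these 8 is Pax6, the gene deleted in the mutants, by its brightest probe set (-0.11, adjusted p = 0.306). It is part of the counts, median and mean of the list given next. All 8 had a negative log2 fold change (median -0.29), 5 were lower and 0 higher at an unadjusted p under 0.05, and Sfrp2 (-0.98) and Fgf15 (-1.43) were called lower. The others with such a p were Six3 (-0.40, adjusted p = 0.0303), Rax (-0.38, adjusted p = 0.0526) and Sox2 (-0.19, adjusted p = 0.115). The mean of the list was 9.34 to 9.35 in control and 8.86 to 8.92 in mutant RPCs, beside the fall of Dll1, and its part in the Dll1 value was not tested. One Pax6 probe set was called lower (-1.60, adjusted p = 0.00329) and the other 4 were not. The sources used here do not say which of them lie in the deleted exons. Of 9 ciliary margin markers, which mark the rim where α-Cre is active, 3 were called higher and 1 lower. At an unadjusted p under 0.05, 3 of them were higher and 3 lower.

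The arrays at the extremes of the endothelial markers were also those at the extremes of the Jagged ligands. The mean log2 intensity of the endothelial markers was 6.17, 5.85 and 6.23 in the controls and 6.61, 6.72 and 6.57 in the mutants. Control replicate 2, its lowest array, was also the lowest on all 5 Jag1 and Jag2 probe sets, and mutant replicate 2, its highest, was the highest on all 5. Such positions were not particular to the Jagged ligands. The brighter Notch1 probe set was also highest in mutant replicate 2 (8.99), and the brighter Notch2 probe set lowest in control replicate 2 (7.49). Dll1 (6.80) and Mfng (6.74) were instead highest in control replicate 2. Control replicate 2 was the lowest array for pigment epithelium markers as well (8.21, against 8.50 and 8.47 in the other controls), while the mutant arrays lay together at 8.99, 8.99 and 9.01. The lens markers were lowest in control replicate 3 (5.48, against 6.09 and 6.15). The mean of the endothelial list was 0.55 higher in mutant RPCs. Notch4, an endothelial receptor, was at 5.60, 4.85 and 5.60 in control and 5.47, 5.13 and 5.42 in mutant RPCs by its brightest probe set. That is a log2 difference of -0.01 (95% confidence interval -0.51 to 0.49). Its dimmer probe sets, below the array median, had log2 fold changes of -0.30 (adjusted p = 0.0675) and -0.01 (adjusted p = 0.954). Neither Notch4 nor Dll4 was called. Both Notch3 values were negative, and the mean of the mural cell list was 4.17 to 4.37 in control and 4.66 to 4.78 in mutant RPCs. That list was mixed, since Pdgfrb (1.64) and Abcc9 (1.33) were called higher while Rgs5, Cspg4 and Des had log2 fold changes of -0.08, -0.08 and -0.03. The markers are transcripts, and whether the mutant pools held more cells of these types was not tested. Any part of such cells in the values of Jag1, Jag2, Notch3, Notch4 and Dll4 was not tested either.

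**Figure D3:**
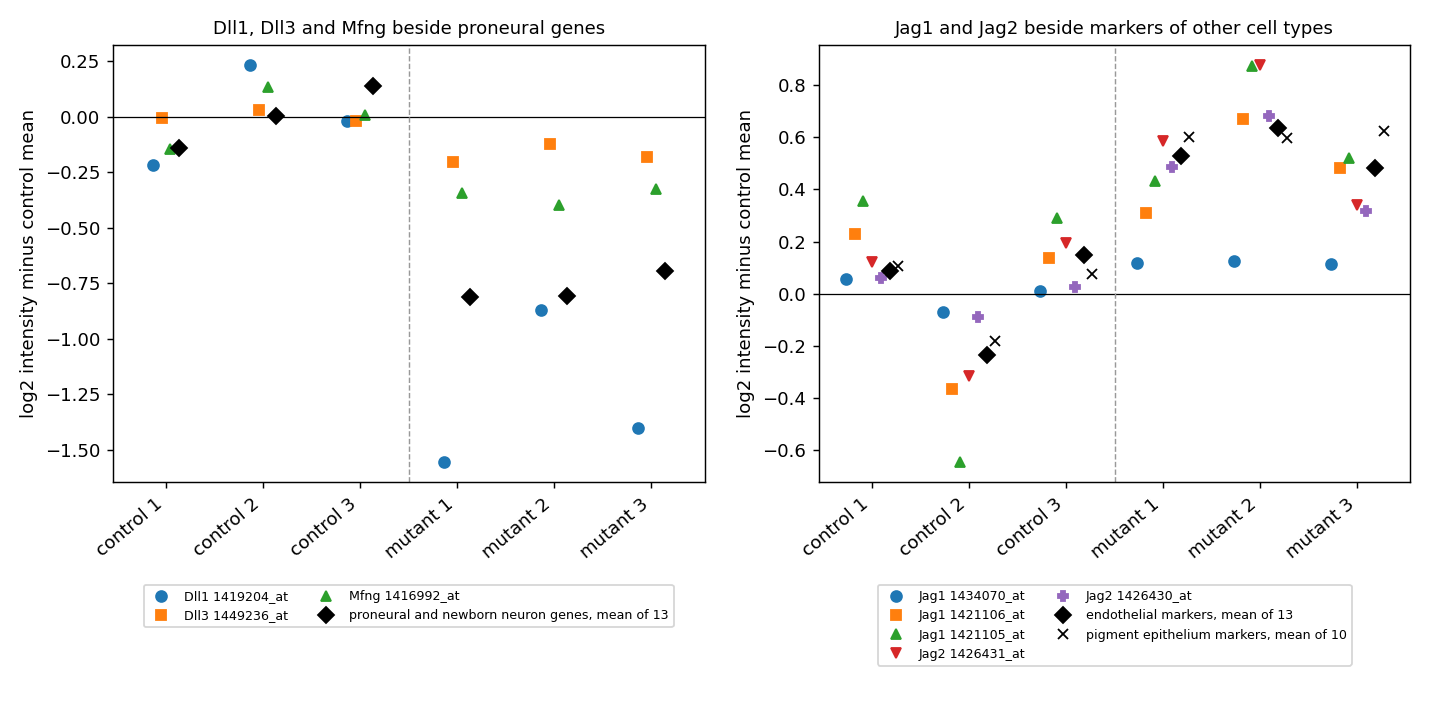
Log2 intensity of each array minus the mean of the 3 control arrays (y axis) by array (x axis), for Dll1, Dll3 and Mfng beside the mean of 13 proneural and newborn neuron genes (left), and for the 5 Jag1 and Jag2 probe sets beside the means of endothelial and pigment epithelium markers (right). Dll1 and the proneural mean are below 0 on all 3 mutant arrays, and the Jagged probe sets and both marker means are lowest in control replicate 2.

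In the rest of the pathway, 3 of 40 measured genes were called, 2 lower and 1 higher, where 0.918% of all 18193 genes were called lower and 2.28% higher. At an unadjusted p under 0.05, 7 of the 40 were lower and 7 higher, against 2108 lower and 2336 higher of the 18193. The median log2 fold change of the 40 was 0.05. Of the other receptors, ligands and Fringes, 0 of 5 were called by limma, and Dlk2 and Dner had an unadjusted p under 0.05. The Fringe Rfng had a log2 fold change of 0.04 (95% confidence interval -0.11 to 0.19), and of -0.17 on a dimmer probe set (adjusted p = 0.354). Dlk1, a Delta-like protein without the Notch-binding domain of the Deltas, had one of 0.22 (-0.39 to 0.82). Dlk2, its relative, had one of 0.30 (0.11 to 0.49, adjusted p = 0.0878) and Dner, a neuronal Notch ligand that lay below the array median, one of -0.39 (-0.64 to -0.15, adjusted p = 0.0836).

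Of 10 measured genes of receptor glycosylation and cleavage, 0 were called by limma, 3 were higher and 0 lower at an unadjusted p under 0.05, and 9 had a positive log2 fold change, with a median of 0.10. The mean of the list was 6.94 to 6.96 in control and 7.08 to 7.10 in mutant RPCs. Aph1b, a γ-secretase subunit gene, had log2 fold changes of 0.37 (95% confidence interval 0.17 to 0.57, adjusted p = 0.0563) and 0.36 (adjusted p = 0.0628) on 2 probe sets, and Furin, the convertase that cuts the receptor during its maturation, one of 0.35 (adjusted p = 0.101). Pofut1, which adds the fucose that Fringes extend, had a log2 fold change of 0.04, the protease gene Adam10 one of 0.10 and the γ-secretase subunit gene Ncstn one of 0.04. Their 95% confidence intervals were -0.12 to 0.20, -0.12 to 0.32 and -0.23 to 0.30. These values are from the brightest probe sets. Dimmer ones had log2 fold changes of -0.01 and 0.26 for Pofut1 (adjusted p = 0.978 and 0.0927). For Adam10 they were -0.04, 0.13 and 0.04, and for Ncstn 0.22, and none was called. Of 7 genes of the nuclear complex, 0 were called by limma and 3 were lower at an unadjusted p under 0.05. Rbpj, the DNA-binding partner of Notch, had no call on its 3 probe sets, with log2 fold changes of -0.17 (adjusted p = 0.232), -0.25 (adjusted p = 0.0843) and -0.22 (adjusted p = 0.192).

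Of 12 genes of ligand and receptor trafficking, Dtx1 was called lower and 0 higher by limma, while 1 was higher at an unadjusted p under 0.05. Dtx1, a Deltex ubiquitin ligase that binds the intracellular part of Notch, was at 6.68, 6.77 and 6.73 in the controls and at 5.87, 5.94 and 5.95 in the mutants. The groups were narrow and far apart, and the log2 fold change was -0.81 (standard error 0.06, adjusted p = 0.00275). Its second probe set, below the array median, had one of -0.11 and was not called, and by the median of both the gene was not called (-0.46). Mib1, the ligase that primes Dll and Jag ligands for endocytosis, had a log2 fold change of -0.02 (95% confidence interval -0.30 to 0.25).

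Of 6 Notch targets, Hes5 was called lower, with log2 fold changes of -1.30 and -1.38 on 2 probe sets, and Hey2 was called higher (0.60) from a level below the array median in both groups (2.43 and 3.03). At an unadjusted p under 0.05, 2 targets were higher and 1 lower. Hey2 was not called in 6 of its 13 alternatives, and its value without 1 array at a time was 0.48 to 0.73. Heyl, another Hey family repressor, had log2 fold changes of 0.36 (adjusted p = 0.107), 0.55 (adjusted p = 0.0115) and 0.47 (adjusted p = 0.151) on 3 probe sets. Their median was 0.53 (adjusted p = 0.0086), under the fold threshold. Hes1, the repressor that keeps progenitors cycling, was not called, with a log2 fold change of 0.06 (95% confidence interval -0.13 to 0.24), nor was Hey1 (-0.02, -0.23 to 0.20).

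**Figure D4:**
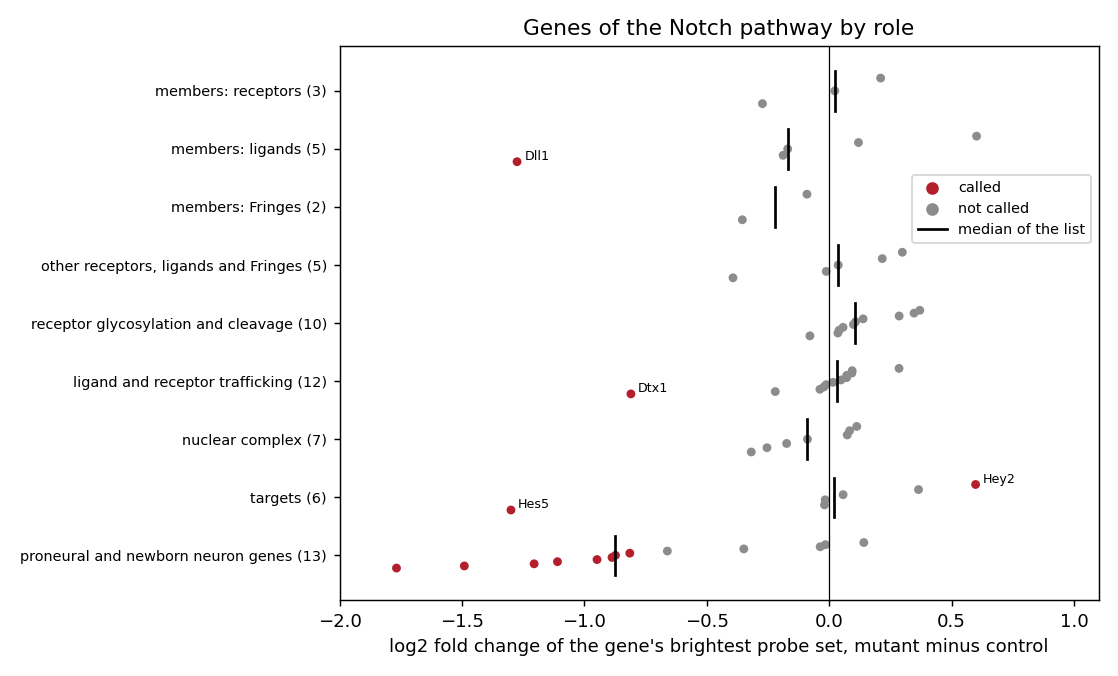
Log2 fold change of the brightest probe set of each gene, mutant minus control (x axis), by role in the Notch pathway (y axis, number of measured genes in brackets), with genes that were called in red, others in grey and a black bar at the median of each list. Dll1, Dtx1 and Hes5 lie to the left of their lists, Hey2 lies to the right at 0.60, and the proneural list has a median of -0.87.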

How the data were processed

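RNA from 3 control and 3 mutant pools was measured on 1 Affymetrix array each. The authors made the deposited values, linear intensities per probe set, by RMA; the methods name RACE and Bioconductor for this step, and Affymetrix Expression Console also stands in the submitters' processing notes. The sources used here give no versions. Groups and replicate numbers follow the sample titles. Log2 of the intensities was taken, 64 control probe sets were left out, and 45037 were compared with limma 3.58.1 in R 4.3.3 (lmFit, eBayes), with Benjamini-Hochberg adjustment over all of them. The methods name no test statistic and add a check with SAM, which was not repeated. Of the probe sets, 34945 have 1 gene symbol in the platform annotation, 932 several and 9160 none here, and genes were named from those with 1. A gene stands by its brightest probe set over 6 arrays. The fit was tested on simulated data.

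Named are all members, the called genes of the other lists and a few fixed genes of each role. The members and lists were chosen with earlier results of these data known. The differences between Dll1 and other ligands, the array by array comparison with marker lists, and Mib1, Aph1b, Furin, Heyl, Six3, Rax, Sox2, Rgs5 and Cspg4 were added after values were seen. Alternatives were other scaling, a pseudocount of 16, a filter on dim probe sets, array weights, other variance models, a replicate block, other probe sets per gene and leaving out each array. Control and mutant arrays of 1 number did not vary together (r of -0.011, -0.00064 and -0.0085), so that numbers were not taken as pairs. RMA shrinks differences of dim probe sets and makes array totals alike. Arrays have no depth, and 3 per group limit the precision.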

Additional observations from a re-analysis of the deposited data

How the results depend on the processing

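Dll1 was the 1 probe set and 1 gene called lower among the members in the main comparison and in every alternative except the fit without moderation of the variance, where 0 were called. With the replicate block 1 member probe set was called lower and 0 higher, and that block changed no call of the members or of the other pathway genes. Among the members 1 probe set and 1 gene (Jag2) were called higher with each array's median subtracted, with an intensity trend or without the dimmest 40% of probe sets, and 0 otherwise. Of the other pathway genes, 1 was lower in place of 2 by the median of a gene's probe sets and by probe sets without _s_, _x_ or _a_ (Dtx1 was lost), and 0 were higher in place of 1 (Hey2) with the pseudocount, with the filter and without moderation, and 0 to 1 without 1 array at a time (Hey2 was lost without control replicates 1 and 2 and mutant replicates 1 and 3). Among the values of single probe sets over the alternatives, 273 kept direction and call, 7 lost and 3 gained a call, and 8 changed sign, each without 1 array. Without 1 array at a time the log2 fold change of the brighter Notch1 probe set ranged from -0.077 to 0.084, the dimmer of Notch2 from -0.29 to 0.00061, the dimmer of Dll4 from -0.069 to 0.036, the brighter of Lfng from -0.17 to 0.016 and the dimmer from -0.0054 to 0.18. Over all probe sets 752 were called higher and 443 lower, against 343 and 174 with the pseudocount and 282 and 178 without moderation. Probe sets below the array median have no firm size of change, and 3 arrays per group limit what could be called.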
